A study of Mus musculus with 6 samples.

Results

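The miR-183, miR-96 and miR-182 cluster is a group of 3 microRNA (miRNA) hairpins that lie close together on mouse chromosome 6. Its 6 members are the 5p and 3p mature arms of these hairpins, listed as mmu-miR-183-5p, mmu-miR-183-3p, mmu-miR-96-5p, mmu-miR-96-3p, mmu-miR-182-5p and mmu-miR-182-3p. They were taken by name from the 1963 distinct mouse sequences of a table of small RNA read counts, and the mouse prefix is left out below. The choice used names and not measured values as its rule, but earlier results of these data were known when it was made. Small RNA was sequenced from mouse liver after injection of AAV9, an adeno-associated virus used to carry genes into tissues. In both groups the vector expressed the recombinase Cre from the Tnnt2 promoter. This promoter, of the cardiac troponin T gene, directs expression mainly to cardiomyocytes. The Cre-miR122 group (3 libraries, replicates 1, 2 and 4) received a vector with an added element named after miR-122, and the Cre group (3 libraries, replicates 10, 11 and 12) received one without it. The labels do not say what the element encodes, and they leave strain, age, dose and time after injection unstated. All counts below are from replicate 2 of the Cre-miR122 group. The other 5 libraries were not analysed here, so the values stand without a replicate or a control and the groups were not compared.

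A miRNA hairpin is cut from a longer transcript and then into a short duplex, of which 1 arm is usually kept in the Argonaute protein and guides it to target mRNAs. Pairing to targets depends mostly on the seed, bases 2 to 8 of the mature miRNA. The cluster is transcribed as 1 unit and is best known from sensory cells, including photoreceptors, hair cells of the inner ear and olfactory neurons. Changes in the seed of miR-96 cause hearing loss in mice and humans. In mouse liver the cluster is known as a target of the sterol-responsive factor SREBP-2, with miR-182 and miR-96 acting on Fbxw7 and Insig2 mRNAs. Its members are often raised in human liver cancer.

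The mature sequences show how alike the 3 guides are and are given first (RefSeq, GRCm38.p6, written 5′ to 3′, with the seed in capitals).
miR-183-5p: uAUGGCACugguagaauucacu
miR-96-5p: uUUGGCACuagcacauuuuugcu
miR-182-5p: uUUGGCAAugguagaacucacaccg
miR-183-3p: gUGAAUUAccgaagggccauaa
miR-96-3p: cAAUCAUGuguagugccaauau
miR-182-3p: gUGGUUCUagacuugccaacu

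The 5p arms share bases 3 to 7, which read UGGCA in all 3. The seed of miR-96-5p differs from that of miR-182-5p at 1 of 7 positions and from that of miR-183-5p at 1 of 7, while miR-182-5p and miR-183-5p have 5 of 7 seed bases in common. Outside the seed the order changes. Over the first 22 bases, miR-183-5p and miR-182-5p are identical at 18 positions, miR-183-5p and miR-96-5p at 13, and miR-96-5p and miR-182-5p at 12. No other mouse sequence in the table has the seed of miR-183-5p or of miR-182-5p. The seed of miR-96-5p is shared by miR-1271-5p, which had 0 reads, also with end variants counted. Among mouse sequences with reads, these 3 seeds were thus held by the cluster's own members only.

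The hairpins place both arms in context, with the mature arms in capitals (RefSeq, GRCm38.p6, the same assembly as mm10, the build named in the submitters' processing notes).
Mir183: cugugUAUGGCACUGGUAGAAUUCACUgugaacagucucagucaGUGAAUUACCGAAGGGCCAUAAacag
Mir96: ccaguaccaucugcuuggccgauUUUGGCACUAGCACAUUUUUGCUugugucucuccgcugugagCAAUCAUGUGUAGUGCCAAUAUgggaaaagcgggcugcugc
Mir182: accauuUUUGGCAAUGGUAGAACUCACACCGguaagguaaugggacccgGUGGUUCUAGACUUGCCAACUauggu

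All 3 genes lie on the minus strand of chromosome 6. Mir183 (ENSMUSG00000065619.2) spans 30169668 to 30169737, Mir96 (ENSMUSG00000065586.1) spans 30169446 to 30169551 and Mir182 (ENSMUSG00000076361.1) spans 30165918 to 30165992. Transcription therefore meets Mir183 first, Mir96 after a gap of 116 bases and Mir182 after a further gap of 3453 bases. The span of 3820 bases holds 0 other annotated genes in GENCODE M21, so the hairpins are neither exonic nor intronic to another gene. On one side the nearest long noncoding or protein-coding gene is Nrf1, on the plus strand and 12459 bases away. On the other side Rncr4, a long noncoding RNA gene on the plus strand, lies 3155 bases away, ahead of Ube2h at 41551 bases.

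The library held 6661069 reads on mouse entries, out of 8163802 over all distinct sequences of the table, which lists mature miRNAs of many species. Liver was checked with 4 hepatocyte miRNAs, miR-122-5p, miR-192-5p, miR-194-5p and miR-148a-3p, all of them present and together at 62.6% of mouse reads. Most of this was miR-148a-3p, at 57.9%, so the total says little of the other 3. miR-122-5p, the main miRNA of hepatocytes, held 3.54%, miR-192-5p held 1.08% and miR-194-5p held 0.0603%. 5 miRNAs of striated muscle held 15.8%, with 4 of the 5 detected and miR-208a-3p at 0 reads. Of these, miR-1a-3p alone held 14.7%, above miR-122-5p, and miR-206-3p held 1.03%. The endothelial miRNA miR-126a-3p held 0.891%, or 1.68% with reads that end at other bases counted (end variants, explained below). With end variants, the hepatocyte miRNAs held 58.1% and those of striated muscle 14.5%. By this counting miR-122-5p went from 236027 to 685102 reads and miR-1a-3p from 980271 to 1065891, still above miR-122-5p. 5 miRNAs of epithelial and bile duct cells held 0.0344%, or 0.116% with end variants, and miR-141-3p among them had 0 and 3 reads. By mouse entries and then with end variants, 2 endocrine miRNAs held 0.0106% and 0.0572%, and 2 of red cells held 0.00462% and 0.0329%. In the same order, 4 of leukocytes held 0.00341% and 0.00932%, and 4 of neurons and sensory tissue held 0.00152% and 0.00321%. The part that any of these cells have in the reads of the cluster was not tested. In bulk tissue, fewer cells of a type and less RNA per cell cannot be told apart.

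By the mouse entries alone, the cluster was a small part of the library and was led by miR-183-5p. The entry of miR-183-5p held 439 reads, that of miR-182-5p held 97 and that of miR-96-5p held 47. The mouse entries of all 3 of the 3p arms held 0 reads. The 6 members together held 583 reads, 0.00875% of mouse reads (exact Clopper-Pearson 95% interval 0.00806 to 0.00949). Intervals here and below are exact 95% intervals and cover the counting error of reads only. Reads were not corrected for the preferences of adapter ligation, which differ between sequences.

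All 3 detected members lay in the upper part of the order of mouse sequences. Of the 546 mouse sequences with at least 1 read, miR-183-5p was at place 95, miR-182-5p at place 166 and miR-96-5p at place 206. The next sequence above miR-183-5p was miR-93-5p with 448 reads and the next below was miR-423-5p with 412. miR-182-5p stood beside miR-127-5p with 100 reads and miR-3535 with 97, and miR-96-5p stood between miR-31-5p with 48 and miR-32-5p with 45. These neighbours are the closest sequences by choice, and their reads lay within counting error of the member's. Within the cluster, reads of miR-183-5p outnumbered those of miR-96-5p 9.34 to 1 (6.90 to 12.9), and reads of miR-182-5p outnumbered those of miR-96-5p 2.06 to 1 (1.44 to 2.99).

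A mouse entry counts only part of the reads of its arm. Reads that end at another base were counted for entries of other species that carry the same miRNA name. The table has 93 distinct sequences under the names miR-183, miR-96 and miR-182 in any species, of which 26 lie wholly in the mouse hairpins and 15 of those had reads. These are called end forms below, and each distinct sequence was counted once. No entry with another name lies in these 3 hairpins.

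With end forms counted, the order of the first 2 members reversed and miR-182-5p led the cluster. miR-182-5p, which acts in mice on Foxo1 among other mRNAs, went from 97 to 1430 reads, 14.7 times its mouse entry. miR-183-5p, which represses ezrin mRNA in human cancer cells, went from 439 to 592 reads, 1.35 times its mouse entry. miR-96-5p went from 47 to 61 reads, 1.30 times its mouse entry. The ratio of miR-182-5p to miR-183-5p was 0.221 (0.175 to 0.276) by mouse entries and 2.42 (2.19 to 2.66) with end forms. Both intervals leave out equality, on opposite sides of it. The ratio of miR-183-5p to miR-96-5p hardly moved, from 9.34 to 9.70 (7.45 to 12.9), and miR-182-5p exceeded miR-96-5p 23.4 to 1 (18.1 to 30.8).

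As shares of the cluster, miR-183-5p held 75.3% (71.6 to 78.8) by mouse entries and 28.4% (26.5 to 30.4) with end forms. miR-182-5p held 16.6% (13.7 to 19.9) and 68.6% (66.6 to 70.6), in the same order. miR-96-5p was lowest under both countings, at 8.06% (5.98 to 10.6) and 2.93% (2.25 to 3.74). The cluster as a whole held 2084 reads with end forms, 0.0259% (0.0248 to 0.0271) of the 8032202 reads on mouse sequences and their end variants. Among the 595 mouse sequences with reads by this counting, miR-182-5p was at place 90, miR-183-5p at place 112 and miR-96-5p at place 239.

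**Figure D1:**
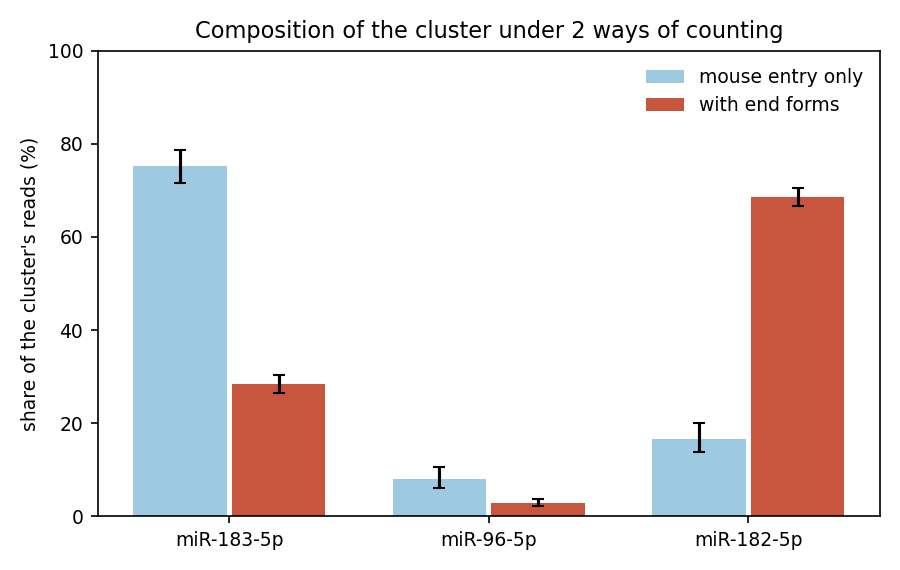
Share of the cluster's reads (%) held by each 5p arm, by the mouse entry alone (583 reads) and with end forms (2084 reads); bars are shares in 1 library and error bars are exact 95% intervals of counting error. miR-183-5p goes from 75.3% to 28.4% and miR-182-5p goes from 16.6% to 68.6%, while miR-96-5p stays lowest.

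The reads of miR-182-5p were spread over 5 recorded 3′ ends. The forms are printed as the table has them, in DNA letters, and capitals mark the bases from position 22 onward, where they part.
miR-182-5p, 21 nt: tttggcaatggtagaactcac
miR-182-5p, 22 nt: tttggcaatggtagaactcacA
miR-182-5p, 23 nt: tttggcaatggtagaactcacAC
miR-182-5p, 24 nt: tttggcaatggtagaactcacACC
miR-182-5p, 25 nt, the mouse entry: tttggcaatggtagaactcacACCG

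The commonest was the 24-nt form, recorded by an entry of 1 species, the Chinese hamster, with 669 reads or 46.8% (44.2 to 49.4). The 22-nt form came next with 356 reads or 24.9% (22.7 to 27.2), above the 23-nt form between them, which had 194 reads or 13.6% (11.8 to 15.5). The lengths thus had 2 peaks, at 22 and 24 nt. The 21-nt form had 114 reads or 7.97% (6.62 to 9.50). The mouse entry, the longest form recorded, had 97 reads or 6.78% (5.53 to 8.21), so 93.2% of the reads of this arm ended before it. The mean length was 23.2 nt.

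miR-183-5p was concentrated on its mouse entry. Capitals again mark the bases from position 22 of the mouse numbering.
miR-183-5p, 21 nt: tatggcactggtagaattcac
miR-183-5p, 22 nt, the mouse entry: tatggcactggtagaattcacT
miR-183-5p, 23 nt: tatggcactggtagaattcacTG
miR-183-5p, 24 nt: tatggcactggtagaattcacTGT
miR-183-5p, 22 nt, starting 1 nt later: atggcactggtagaattcacTG

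Of the 559 reads of miR-183-5p with the start of the mouse entry, 439 or 78.5% (74.9 to 81.9) had its 3′ end too. Forms longer by 1 and 2 nt had 51 and 42 reads, together 16.6%, and the form shorter by 1 nt had 27 reads or 4.83% (3.21 to 6.95). Among its recorded forms, miR-183-5p was thus more often extended than shortened. No recorded form of miR-182-5p is longer than its entry, so the arms cannot be compared in this. The mean length of miR-183-5p was 22.2 nt.

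The form starting 1 nt later had 32 reads, and a second one of 19 nt with the same start had 1 read. Together they made up 5.57% (3.87 to 7.74) of the 592 reads of miR-183-5p. A start moved by 1 base moves the seed, which becomes UGGCACU, and 0 of the mouse sequences in the table have that seed. For miR-96-5p the table records 1 form with a later start, and it had 0 of 61 reads, with an exact upper limit of 5.87%, or 4.92% if 3 reads are taken as the floor of a count of 0. For miR-182-5p the table records 0 forms with another start, so the start of this arm could not be compared.

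miR-96-5p had few reads and 3 recorded ends.
miR-96-5p, 21 nt: tttggcactagcacatttttg
miR-96-5p, 22 nt: tttggcactagcacatttttgC
miR-96-5p, 23 nt, the mouse entry: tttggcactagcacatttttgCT

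The mouse entry of miR-96-5p held 47 of 61 reads, 77.0% (64.5 to 86.8), with 6 reads on the 22-nt form and 8 on the 21-nt form. This interval overlaps that of miR-183-5p and lies far above that of miR-182-5p. The mean length of miR-96-5p was 22.6 nt. The longest recorded forms are 24 nt for miR-183-5p, 23 nt for miR-96-5p and 25 nt for miR-182-5p, and ends beyond these, or others that no entry records, are not seen.

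**Figure D2:**
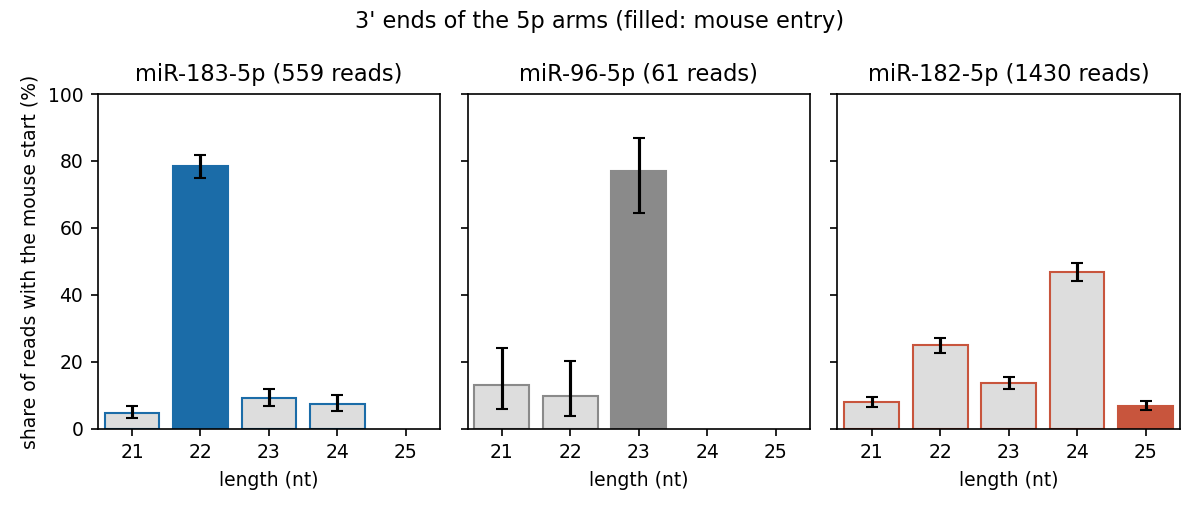
Length (nt) of the 5p forms that share the start of the mouse entry, as a share (%) of those reads, for miR-183-5p (559 reads), miR-96-5p (61 reads) and miR-182-5p (1430 reads) in 1 library; filled bars are mouse entries and error bars are exact 95% intervals. The mouse entry is the highest bar for miR-183-5p (78.5%) and miR-96-5p (77.0%) and the lowest for miR-182-5p (6.78%), whose reads peak at 24 and 22 nt.

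These forms also bear on how the reads were counted. If a read counted for every entry it contains, a longer form could never hold more reads than a shorter form nested at its start. Among the 19 nested pairs of 5p forms, the longer form held more reads in 10, of which 5 were pairs of miR-182-5p, 3 of miR-183-5p and 2 of miR-96-5p. The check bears on that way of counting only. It cannot show whether reads with other ends or bases were given to the nearest entry. Reads were taken as counted for 1 form each, and the lengths and shares of forms rest on this.

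The split seen in miR-182-5p was set against the rest of the library. There were 253 mouse arms that reached 50 reads when end variants were counted. The median share of the mouse entry in them was 68.4%, and in 99 arms (39.1%) it was under 50%. miR-183-5p and miR-96-5p, at 74.2% and 77.0%, lay above that median. A total of 22 arms had a lower share on the mouse entry than miR-182-5p. This is a description of 1 library, and the number of ends that the table records differs between arms. Arms with only 1 recorded form, such as miR-3535, are at 100% by construction, and they count in the median and in the 39.1%.

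**Figure D3:**
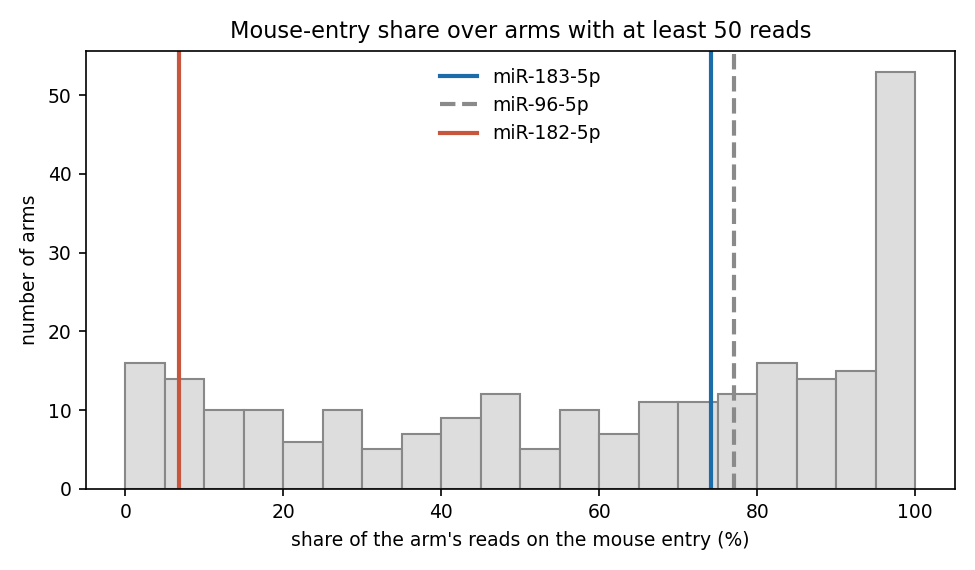
Number of mouse arms by the share (%) of their reads, end variants included, that the mouse entry holds, for the 253 arms with at least 50 reads in 1 library; vertical lines mark the 3 arms of the cluster. miR-182-5p lies at 6.78%, in the low tail with 22 arms below it, and miR-183-5p (74.2%) and miR-96-5p (77.0%) lie above the median of 68.4%.

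In all 3 hairpins the reads came from the 5p arm. With end forms counted, the 3p arms of miR-183 and miR-96 held 0 reads, over 4 and 1 recorded forms. The 3p arm of miR-182 held 1 read, on a form 1 nt longer than its mouse entry, over 6 recorded forms. Taking 3 reads per library as the floor, 0 reads stand for 4.5e-05% of mouse reads, below the exact upper limit of 5.5e-05%. Against that floor the 5p arm was 197-fold higher than the 3p arm in miR-183 and 20.3-fold higher in miR-96. The exact limit would give lower values. In miR-182 the ratio was 1430 to 1, with a counting interval from 256 to 56521. It is taken over the 1 read observed and not over the floor, so it cannot be set against the other hairpins.

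Few reads on the second arm were common at this depth. Of 131 miRNAs with both arms annotated and 50 to 5000 reads on the higher arm, 40 (30.5%) had 0 reads on the lower arm and 55 (42.0%) had at most 1. The 5p arm was the higher one in 70 of the 131. In the minimum-energy fold predicted from the hairpin sequences, the first base of the 5p arm was unpaired in miR-96 and miR-182 and paired in miR-183, while the first base of the 3p arm was paired in all 3. Of the bases of the 5p arm, 19 of 22 paired in miR-183, 19 of 23 in miR-96 and 18 of 25 in miR-182.

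The 3 hairpins come from 1 transcript, yet their reads differed by up to 23.4-fold with end forms, from 61 reads of miR-96-5p to 1430 of miR-182-5p. By mouse entries the spread from highest to lowest was 9.34-fold. In the miR-200b, miR-200a and miR-429 cluster, a cluster of epithelial cells, the higher arms held 5791, 3088 and 312 reads with end variants, an 18.6-fold spread, or 5.54-fold by mouse entries. In the miR-106b, miR-93 and miR-25 cluster, found in an intron of Mcm7, the spread was 11.7-fold with end variants and 11.8-fold by mouse entries.

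Over the 5 other clusters of 3 hairpins that were compared, the spread ran from 3.37 to 18.6-fold with end variants, all below the 23.4-fold of the miR-183, miR-96 and miR-182 cluster. The counting interval of this 23.4-fold, 18.1 to 30.8, takes in the 18.6-fold of the miR-200b, miR-200a and miR-429 cluster. The order of these 2 clusters thus lies within counting error. By mouse entries 4 of the 5 had a wider spread than the miR-183, miR-96 and miR-182 cluster. Its place among clusters thus depended on the counting. With clusters of 2 hairpins included, 8 of 11 had a narrower spread with end variants and 3 had a wider one. Of these 3, the miR-200c and miR-141 cluster, at 36.7-fold, rests on 3 reads of miR-141-3p. By mouse entries, only 2 of the 10 other clusters with a value had a narrower spread. Some of these clusters have a member with a copy elsewhere in the genome, such as miR-24, whose reads cannot be divided between copies. The summed reads of the higher arms were 2083 for the miR-183, miR-96 and miR-182 cluster and 9191 for the miR-200b, miR-200a and miR-429 cluster.

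**Figure D4:**
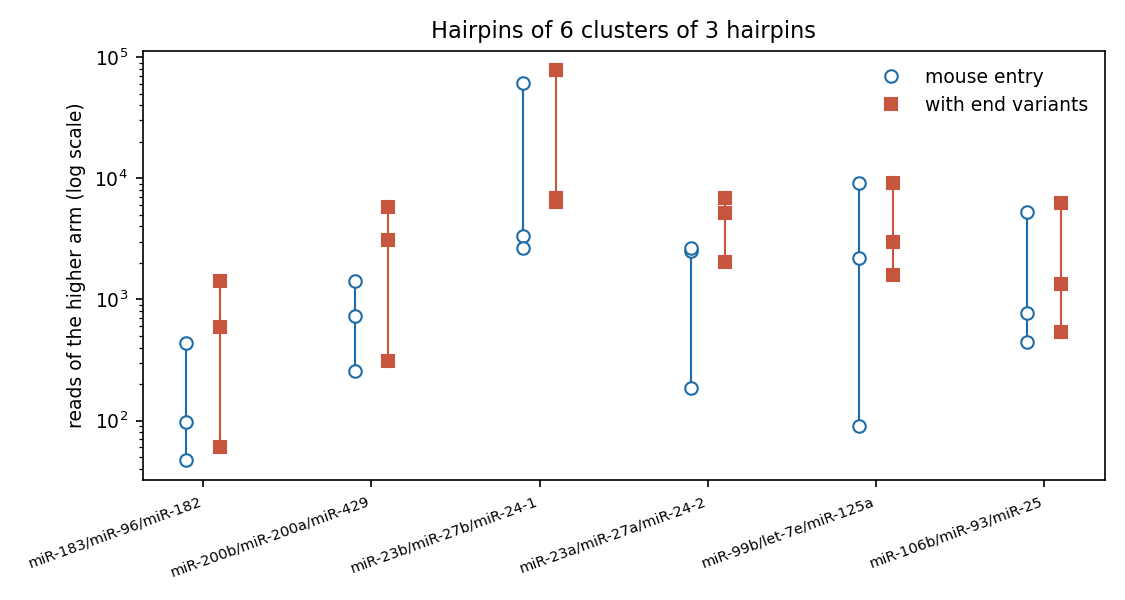
Reads of the higher arm (log scale) of each hairpin in 6 clusters of 3 hairpins in 1 library, by the mouse entry (open circles) and with end variants (filled squares); vertical lines join the lowest and highest hairpin of a cluster. The cluster of miR-183, miR-96 and miR-182 is lowest in reads and runs from 47 to 439 by mouse entries and from 61 to 1430 with end variants.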

How the data were processed

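Small RNA libraries were made from total RNA by ligating adapters to both ends, with PCR, size selection and single-end sequencing, per the labels' protocols, which name no molecular identifiers. The deposited table holds raw counts, as whole numbers, of the cleaned reads of 1 library for each of 48885 mature miRNA entries, per the file headers. How the authors counted, and against which release of miRNA sequences, is not given in the sources used here. In the table the column name matches Cre-miR122 replicate 2 alone, and 0 other library columns were present. Entries of identical sequence had equal counts, so each of the 30721 distinct sequences was used once.

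End forms are same-named entries of other species lying wholly in the mouse hairpin. For other miRNAs, end variants were entries lying in the 2202 miRNA hairpins of GENCODE M21 that overlapped the same mouse sequence most, by at least 15 nt, wherever found. Intervals are exact Clopper-Pearson, or binomial given the sum of both counts for ratios. PCR copies count as separate reads, so intervals and floors cover counting error only. Interval coverage was checked on libraries simulated with counting error only. The assignment of end variants was checked on copies of mouse sequences with shifted ends. Neither check covers PCR or ligation. With 1 library no test was run, and the planned comparison over libraries was not possible. Hairpins were folded with ViennaRNA 2.7.2. Computation used SciPy 1.17.1, NumPy 2.4.6 and pandas 2.3.3 under Python 3.11.15, and plots used matplotlib 3.10.9.

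The members, the comparison clusters and the marker lists were chosen with earlier results of these data known. The miRNAs named are the members, those sharing a seed with a 5p member, those next to a member in the order of reads, the comparison clusters and the markers. The miRNAs named for changes of the last base were chosen after seeing the values. The alternatives changed the total, the entries taken as end forms, a minimum of 10 reads, the arm that stands for a hairpin and shares without miR-148a-3p.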

Additional observations from a re-analysis of the deposited data

Results flagged for a closer look

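Same-named entries that are not in the mouse hairpins were outside the main measurement. Of 67 such sequences, 3 had reads, all above the floor of 3 reads. The first is a 24-nt form of miR-182-5p with C24T, counted from 1 at the 5′ end, where the hairpin base comes first. Capitals mark the bases from position 22.
miR-182-5p with C24T, 24 nt: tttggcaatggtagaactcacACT

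It is the entry of 16 species, human among them, and held 104 reads, 13.5% (11.1 to 16.1) of the reads of this form and the matching 24-nt form together. Its first 23 bases are those of the 23-nt form, which had 194 reads, so a changed base and an added base cannot be told apart. A 25-nt form with the same C24T, recorded for 5 species, had 10 reads, 9.35% (4.57 to 16.5) of it and the mouse entry. A 24-nt form of miR-183-5p with T24A, recorded for 1 species, had 5 reads, 10.6% (3.55 to 23.1) of it and the matching form.

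For the library as a whole, 39 forms share the start of a mouse entry, differ from the hairpin only at the last base and have a matching form of at least 50 reads. Their median share was 0.296%, and C24T in miR-182-5p was at place 6 from the top. Above it were forms of miR-27a-3p (C21T, 82.7%), miR-31-5p (T23A, 60.4%), miR-101a-3p (G22T, 52.1%), miR-214-3p (T22A, 25.3%) and miR-148a-3p (C23T, 24.3%). The cause of these forms was not tested.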

How the results depend on the processing

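The ratio of miR-182-5p to miR-183-5p, 0.221 by mouse entries, reversed to 2.42 with end forms, 2.56 with end forms of the same 5′ start and 2.59 with forms not in the hairpin added. These alternatives add 1333 or more reads to miR-182-5p. The ratio of miR-182-5p to miR-96-5p moved from 2.06 to 23.4, 23.4 and 25.3 under the same 3 countings, and the ratio of miR-183-5p to miR-96-5p stayed between 9.16 and 9.79. The spread of the cluster moved from 9.34-fold to 23.4-fold with end variants. The 5p to 3p ratio of miR-182 was 32.3 by mouse entries, against the floor of 3 reads, and 1430 with end forms, against 1 observed read. These ratios have unlike denominators, so the change between them is not a measure of the arms. miR-182-5p had 1544 reads with forms not in the hairpin. The cluster's share moved from 0.00875% to 0.00714% over all sequences, 0.0259% with end variants and 0.0208% without miR-148a-3p in the total. Taking any entry in the hairpin as an end form could move none of 9 results, since no other-named entry lies there. A minimum of 10 reads moved none of 4 and leaves out the 3p arms. It could not remove a detected member, the lowest of which held 47 reads, and changed only the total. Among arms with at least 500 reads, an alternative chosen after seeing the data, 10 of 121 had a lower mouse-entry share than miR-182-5p. Among miRNAs with 200 to 1500 reads on the higher arm, also chosen later, 32.1% had 0 reads on the lower arm. Of the 3 countings of the ratios, the one with end forms was planned and the others were chosen after seeing the data. Leaving out each replicate was not run with a single library. No paired analysis was possible because only replicate 2 was analysed. Depth limits what can be said of miR-96-5p, with 61 reads, and of the 3p arms.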
